A study of Mus musculus with 14 samples.

Results

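Macrophage binding sites of PU.1 and C/EBPβ are not spread evenly along the genome, and this account describes the places where they lie closest together. The mouse autosomes (GRCm38, the assembly also called mm10) were cut into 49264 bins of 50 kb, the peak centres of the macrophage PU.1 and C/EBPβ lists were added up in each bin, and the 300 bins with the most centres were taken with all ties. The bins were therefore chosen by these 2 lists. The lowest accepted sum was 18 centres, and 378 bins reached it (0.767% of all bins). They are called dense bins here. They held 7767 of the 136046 autosomal peaks of the 2 lists (5.71%), of which 4756 were PU.1 peaks and 3011 were C/EBPβ peaks.

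The 14 peak lists of the series came from chromatin immunoprecipitation followed by sequencing (ChIP-seq) of cells differentiated in vitro from 1 mouse embryonic stem cell line, strain 129, that carries a GFP reporter at the Brachyury gene. Macrophages (MAC) were the CD11b+ cells obtained by further culture of CD41+ hematopoietic progenitors (HP), which were sorted as CD41+. The earlier populations were mesoderm (MES; Bry.GFP+, FLK1-), hemangioblasts (HB; Bry.GFP+, FLK1+) and hemogenic endothelium (HE; Tie2+/Ckit+/CD41-), and HE cells were immunoprecipitated with mouse mRNA and recombinant histone 2B as carriers because they are rare. Each antibody and population gave 1 list. PU.1 (gene Spi1) and C/EBPβ were each mapped in MAC and HP, C/EBPβ also in MES, HB and HE, RUNX1 in MAC and HP, GATA2 in HB and HP, GATA1 and GFI1B in HP, and ELK4 in MES. Because no list had a replicate, the spread between cultures is unknown and no test was run. The 95% intervals given with shares are exact Clopper-Pearson intervals. They reflect counting error alone and treat bins and peaks as independent, although neighbouring peaks share a locus. The lists hold positions and no RNA values, so the sorted populations were not checked against marker RNA here.

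PU.1 is an ETS family transcription factor that myeloid cells cannot do without, and it binds purine-rich sequences around a GGAA core. C/EBPβ is a basic leucine zipper factor that binds palindromic sequences as a dimer and takes part in macrophage differentiation and in inflammatory gene expression. In macrophages both factors are known to occupy many enhancers together, often in groups of neighbouring sites around genes of the lineage.

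Sites of the dense bins that held the consensus sequences of both factors are shown first. They are a small minority of the peaks there, and they are printed because both sequences can be read in them. Each of the following sequences is the central 200 bp of a MAC PU.1 peak that overlapped a MAC C/EBPβ peak and an HP PU.1 peak and that held a PU.1 consensus (GAGGAAGT) and a C/EBP consensus (TTGCNNAA), on either strand, in those 200 bp. Of the 13 bins with the most peaks 2 contained such a site, and 1 of these 2 sites touched an annotated exon and is not printed. The remaining sites were taken from the next densest bins, a choice made after the values were seen. All are read from the plus strand of GRCm38, with the PU.1 and C/EBP consensus sequences in capitals.
Ccl4 bin, chr11:83640249-83640448: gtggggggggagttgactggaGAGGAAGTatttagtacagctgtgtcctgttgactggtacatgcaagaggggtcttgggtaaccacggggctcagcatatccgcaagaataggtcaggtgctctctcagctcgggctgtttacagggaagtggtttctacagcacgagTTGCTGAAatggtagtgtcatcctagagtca
Sdccag8 bin, chr1:176832648-176832847: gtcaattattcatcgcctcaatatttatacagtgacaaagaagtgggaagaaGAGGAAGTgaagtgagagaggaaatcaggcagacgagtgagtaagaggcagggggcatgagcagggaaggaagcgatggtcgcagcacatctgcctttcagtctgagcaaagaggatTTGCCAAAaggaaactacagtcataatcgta
Dleu2 bin, chr14:61650378-61650577: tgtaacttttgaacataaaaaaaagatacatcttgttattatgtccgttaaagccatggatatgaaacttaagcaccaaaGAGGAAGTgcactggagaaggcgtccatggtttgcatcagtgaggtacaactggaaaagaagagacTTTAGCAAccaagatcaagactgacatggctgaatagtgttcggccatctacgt
Klf13 bin, chr7:63911355-63911554: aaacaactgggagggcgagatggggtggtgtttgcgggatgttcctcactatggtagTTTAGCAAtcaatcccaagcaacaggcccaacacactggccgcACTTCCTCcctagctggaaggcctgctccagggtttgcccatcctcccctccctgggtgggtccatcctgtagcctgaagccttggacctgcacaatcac
Igsf8 bin, chr1:172311248-172311447: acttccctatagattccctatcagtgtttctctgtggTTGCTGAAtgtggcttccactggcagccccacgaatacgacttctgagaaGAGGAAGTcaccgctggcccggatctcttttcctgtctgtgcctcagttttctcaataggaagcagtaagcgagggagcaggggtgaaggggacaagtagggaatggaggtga
Each window held 1 PU.1 and 1 C/EBP consensus. The site near Ccl4 is intergenic and 8275 bp from the nearest coding transcription start site (TSS), that of Ccl4, a chemokine gene. The Sdccag8 and Klf13 sites lie in introns of these genes, 17895 bp and 5402 bp from the nearest coding TSS, and the Dleu2 site lies in an intron of a noncoding gene, 43021 bp from the TSS of Kcnrg. The Igsf8 site is intergenic and 1019 bp from the TSS of Igsf8. The starts of the PU.1 and C/EBP sequences were 148, 117, 66, 43 and 50 bp apart, in the order printed, so that no fixed spacing was seen among these sites. The sites at Ccl4 and Igsf8 also overlapped an HP C/EBPβ peak. The Igsf8 window also held a RUNX consensus (TGTGGTT), which overlapped its C/EBP sequence.

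The number of macrophage peaks per bin, which chose the dense bins, ranged widely. In 21329 bins (43.3%) there was none, the mean over all bins was 2.76, and the median of the dense bins was 20 with a maximum of 33. At the limit, 99 bins held exactly 18 peaks and were taken, whereas 161 bins held 17 and were not. There is no gap in the distribution at that number, and the limit is a convention of the choice.

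**Figure D1:**
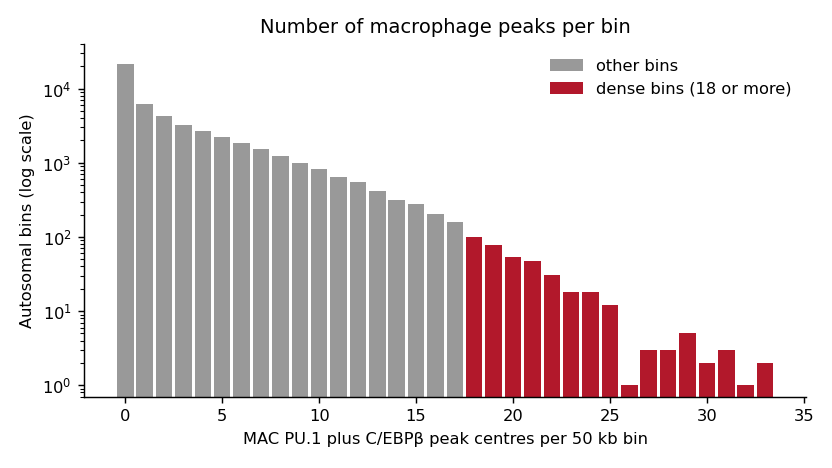
Number of autosomal 50 kb bins (log scale) by their sum of MAC PU.1 and C/EBPβ peak centres. Dense bins, with 18 or more, are red. They form the upper end of a continuous distribution that reaches 33 peaks.

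Many of these peaks are 2 records of 1 site. When overlapping MAC peaks of the factors were merged, a dense bin held a median of 15 separate sites, from 10 to 25. Sites of both factors made up 30.8% of the 5926 merged sites in dense bins (95% interval 29.6% to 32.0%) and 20.0% of the 106761 sites in other bins. Sites of C/EBPβ alone made up 19.9% and 28.2%, and sites of PU.1 alone 49.3% and 51.8%. Expressed per list, 60.7% of the C/EBPβ peaks in dense bins overlapped a PU.1 peak (59.0% to 62.5%), against 41.6% elsewhere, and 38.6% of the PU.1 peaks overlapped a C/EBPβ peak, against 28.0%. A site of both factors adds 2 to the sum that chose the bins, so these shares describe the choice and are not independent of it. On all autosomes but chromosome 18, 50 MAC PU.1 peaks of 47 dense bins overlapped a C/EBPβ peak and held the PU.1 and the C/EBP consensus in their central 200 bp, and 17 of these also lay on an HP PU.1 peak. The median distance from a merged site to its nearest neighbour was 1210 bp in dense bins and 3058 bp elsewhere, which the choice also sets.

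The 10 bins with the most peaks, 13 with ties, held 29 to 33. The bin at chr1:155050001-155100000 had 24 PU.1 and 9 C/EBPβ peaks and contains the TSS of Ier5, an immediate early response gene. The bin of Ankrd11, which encodes a chromatin regulator, at chr8:123000001-123050000, also reached 33 peaks with 17 of PU.1 and 16 of C/EBPβ. These leading bins thus had the same sum with an unequal and a nearly equal contribution of the factors.

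The next 4 bins with a coding TSS held 30 to 32 peaks. The bin of Arhgap25, a GTPase activating protein of phagocytes (chr6:87500001-87550000), held 21 PU.1 and 11 C/EBPβ peaks. The bin of Irf2bp2, a transcriptional corepressor (chr8:126550001-126600000), and that of Socs3, the feedback inhibitor of cytokine receptors, with Pgs1 (chr11:117950001-118000000), each held 21 and 10. Tnf, the gene of the central inflammatory cytokine, shared its bin with Lta, Nfkbil1, Ddx39b and Atp6v1g2 (chr17:35200001-35250000), which held 19 and 11.

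Colony stimulating factor and chemokine genes were among the same 13. The bin of Csf1, the growth factor of macrophages (chr3:107750001-107800000), held 18 PU.1 and 11 C/EBPβ peaks. The bin of the chemokine genes Ccl3 and Ccl4 (chr11:83600001-83650000) held 16 and 13, and that of Sla, an adaptor protein of hematopoietic cells (chr15:66800001-66850000), held 17 and 12. In all 13 bins PU.1 had more peaks than C/EBPβ.

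The other 4 of the 13 held no coding TSS. One covers the long noncoding RNA genes Neat1 and Malat1 (chr19:5800001-5850000) with 18 PU.1 and 13 C/EBPβ peaks. The bin at chr8:126800001-126850000, with 17 and 12, lies 120920 bp from the nearest coding TSS, that of Tomm20, and the bins at chr1:191250001-191300000 (19 and 11) and chr17:84100001-84150000 (18 and 11) lie 43130 bp and 62946 bp from those of Nenf and Zfp36l2. Distances are from the bin centre. A large number of peaks was therefore found with and without a coding promoter in the bin.

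Of the 378 dense bins, 297 (78.6%) contained at least 1 coding TSS, against 33.1% of all autosomal bins. A further 33 lay inside a coding gene without its TSS, and 48 touched no coding gene. Together the bins contained the TSS of 510 coding genes, which is 2.48% of the 20558 autosomal coding genes, with a mean of 1.37 per bin against 0.481 over all bins and a maximum of 8, in the bin of Cd68. When only peaks over 2 kb from a coding TSS ranked the bins, the dense bins contained 186 coding genes, and the gene lists were not counted in that setting. A long noncoding RNA gene was annotated in 189 bins and a miRNA gene in 30. These genes were not counted over all bins, so the numbers have no background to be read against. The median GC content was 48.2% in dense bins and 41.4% over all bins. In bins with 14 to 17 MAC peaks the mean was 1.39 coding genes and the median GC content 46.8%. Gene number thus rose with peak number up to that class and not beyond it, whereas GC content was highest in the dense bins. The part of gene number and GC content in the counts of genes and of bins with HP peaks was not tested.

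Genes of macrophages and immune signalling were counted from 16 lists of known genes, and 6 lists of other genes were counted beside them. Of 320 autosomal members of the 16 lists, 52 had a TSS in a dense bin (16.2%; 12.4% to 20.8%), against 8 of 180 (4.44%; 1.94% to 8.57%) in the other 6 lists and 2.48% of all coding genes. The highest shares were those of lysosomal proteases and membrane proteins (5 of 19, 26.3%), growth factor and cytokine receptors (6 of 25, 24.0%) and Toll-like receptors and adaptors (4 of 19, 21.1%). The lowest of the 16 were granule and lysozyme genes (1 of 16) and lipid handling (2 of 25). Each list was short, and the intervals of 7 of the 16 lists (AP-1, scavenger receptors, chemokine receptors, STAT and SOCS, lipid handling, NADPH oxidase and granule genes) included the 2.48% of all coding genes.

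**Figure D2:**
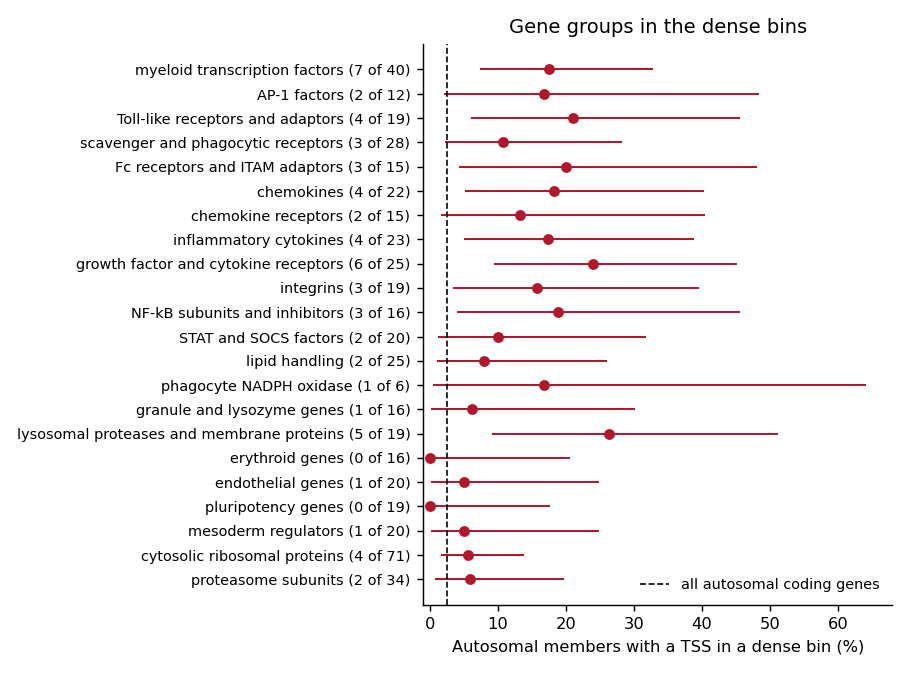
Share of the autosomal members of each gene list with a TSS in a dense bin (%), with exact 95% intervals and the counts beside each name. The dashed line marks all autosomal coding genes (2.48%). Points of the 16 macrophage and immune lists, at the top, lie to the right of the line, as do those of the endothelial, mesoderm, ribosomal and proteasome lists, and no erythroid or pluripotency gene was in a dense bin.

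Among transcription factors, 7 of 40 myeloid regulators were in dense bins. The bin of Spi1, the gene of PU.1 itself (chr2:91050001-91100000), held 16 PU.1 and 8 C/EBPβ peaks in MAC and, in HP, 4 PU.1 and 2 C/EBPβ peaks. Irf8, a partner of PU.1 in the monocyte lineage, lay in a bin with 15 and 10 MAC peaks, and Klf13 in one with 11 and 12. Runx1, the regulator of blood emergence, had TSS in 2 dense bins, each with 12 PU.1 and 6 C/EBPβ peaks. In its bin at chr16:92800001-92850000 HP peaks of PU.1 (3), C/EBPβ (1), RUNX1 (2), GFI1B (2), GATA2 (2) and GATA1 (1) were found, whereas its other bin held 1 HP RUNX1 peak and no other HP peak. Irf1, an interferon response factor, Etv3 and Mitf, a basic helix-loop-helix factor, completed this group. The AP-1 genes Fos and Junb, 2 of 12, each had a bin with 12 PU.1 and 9 C/EBPβ peaks. Cebpb has no TSS in a dense bin, but the dense bin at chr2:167700001-167750000, with 12 and 9 MAC peaks and 3 HP PU.1 peaks, has Cebpb as its nearest coding gene, a bin named after its values were seen.

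Receptors and their adaptors formed the next group. Cd14, the coreceptor for lipopolysaccharide, lay in a bin with 10 PU.1 and 10 C/EBPβ peaks, and Irak2, a kinase of Toll-like receptor signalling, in one with 14 and 14. Ticam1, an adaptor, and Unc93b1, a chaperone of intracellular Toll-like receptors, had 12 and 7, and 15 and 9. The factors had equal numbers at Cd14 and Irak2, whereas at Csf1r, the receptor of the growth factor encoded by Csf1, 14 PU.1 peaks stood beside 5 of C/EBPβ. The other 5 cytokine receptor genes (Ifnar2, Il10ra, Il17ra, Il4ra and Tnfrsf1b) had bins with 10 to 16 PU.1 and 8 to 10 C/EBPβ peaks. Phagocytic and Fc receptor genes in dense bins were Cd68, Cd300a, Lrp1 and Fcgr2b, with the signalling genes Syk, a kinase, and Inpp5d, the phosphatase SHIP1. Inpp5d had 15 PU.1 and 4 C/EBPβ peaks, one of the lowest C/EBPβ shares. The integrin genes Itgal, Itgb2 and Itga5, the receptor genes C5ar1 and Ccrl2 and the oxidase component Rac2 also lay in dense bins.

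Secreted factors and effectors followed. Of 22 chemokine genes, Ccl2 and Ccl7 shared a bin with 15 PU.1 and 9 C/EBPβ peaks, and Ccl3 and Ccl4 shared theirs, so that 4 genes stand for 2 bins. Of 23 inflammatory cytokine genes, Tnf, Csf1, Il1a and Il1rn were in dense bins. Il1a, which encodes interleukin-1α, had 12 PU.1 and 13 C/EBPβ peaks, and Il1rn, which encodes the antagonist of the interleukin-1 receptor, had 12 and 9. Both Nfkbia and Nfkbie, inhibitors of NF-κB, and the subunit gene Nfkb2 were in dense bins with 13 and 6, 18 and 10, and 12 and 6 peaks. Stat6 shared its bin with Lrp1. The lipid exporters Abca1 (11 and 9) and Abcg1 (14 and 4) differed in the balance of the factors. Lysosomal genes were Ctsb, Ctsd, Lgmn, Psap and Laptm5, and Mmp9 was the granule gene.

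In the lists of other lineages and housekeeping functions, none of 16 erythroid and none of 19 pluripotency genes was in a dense bin, which allows shares of up to 20.6% and 17.6%. The endothelial list contributed Erg and the mesoderm list Tbx6. Of 34 proteasome genes 2 (Psmb3 and Psmc3) were in dense bins, and of 71 cytosolic ribosomal protein genes 4 (5.63%; 1.56% to 13.8%). Psmc3 lies beside Spi1, so that the bins do not by themselves pair a gene with a site.

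Binding in progenitors was not used to choose the bins, and it was read next to ask whether the dense bins of macrophages were already occupied one stage earlier. At least 1 HP PU.1 peak was found in 334 of 378 dense bins (88.4%; 84.7% to 91.4%), against 16.3% of all autosomal bins. An HP C/EBPβ peak was found in 150 (39.7%; 34.7% to 44.8%), against 4.84% of all bins. In the 363 bins with 16 or 17 MAC peaks, just below the limit, the shares were 76.3% (71.6% to 80.6%) and 31.1% (26.4% to 36.2%). The share of bins with an HP peak rose with the number of MAC peaks, from 10.8% of bins with 1 or 2 MAC peaks to 42.2% with 6 to 9 and 73.2% with 14 to 17 for PU.1, and from 2.01% to 12.9% and 27.1% for C/EBPβ.

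A dense bin held a median of 2 HP PU.1 peaks and up to 7. The bins with 7 were the one at chr8:126800001-126850000 without a coding gene and that of Mcl1, a survival factor of the BCL2 family, with Adamtsl4 (chr3:95650001-95700000). Bins with 6 contained Laptm5 and Matn1, Junb with Hook2, Prdx2 and Rnaseh2a, Cd300a with Gprc5c, and Psmb3 with Pip4k2b and Pcgf2, and a further one lay within Plcg2, a phospholipase of immune receptor signalling. For C/EBPβ the maximum was 3 HP peaks, in the bins of Gse1 (chr8:120500001-120550000), of Lgmn, of Sirt7, Mafg, Pcyt2, Pycr1, Npb and Myadml2, and in a bin near Sp3. A further 26 bins held 2, among them those of Spi1, Tnf, Csf1, Socs3, Ccl3 and Ccl4, Cd14, C5ar1, Il17ra, Inpp5d, Smad3 and Per1.

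Both HP factors were present in 139 dense bins (36.8%), PU.1 alone in 195 (51.6%), C/EBPβ alone in 11 and neither in 33 (8.73%). Over all bins the same classes held 2.43%, 13.9%, 2.41% and 81.3%. The dense bins held 793 HP PU.1 and 184 HP C/EBPβ peaks. C/EBPβ made up 18.8% of these HP peaks in dense bins and 19.9% on all autosomes. The HP lists are far shorter than the MAC lists and their lengths were set by a threshold chosen per list, so that the lower HP share of C/EBPβ cannot be read as a lower amount of binding.

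Nearly all HP peaks in dense bins lay on MAC peaks of the same factor, 783 of 793 for PU.1 (98.7%) and 181 of 184 for C/EBPβ (98.4%), against 96.8% and 90.9% in other bins. A bin with more MAC peaks thus offers more places for an HP peak, and the share per MAC peak was therefore compared as well. Of the MAC PU.1 peaks in dense bins, 783 of 4756 (16.5%; 15.4% to 17.5%) overlapped an HP PU.1 peak, against 12.6% (12.4% to 12.8%) in other bins. For C/EBPβ these shares were 6.01% (5.19% to 6.92%) and 4.41% (4.24% to 4.59%). The intervals did not overlap for either factor, and the differences were far smaller than those between bins. In bins with 14 to 17 MAC peaks the shares were 14.1% (13.4% to 14.9%) for PU.1 and 5.30% (4.73% to 5.90%) for C/EBPβ. The C/EBPβ interval of that class overlapped the interval of the dense bins. When the C/EBPβ list alone ranked the bins, the C/EBPβ share was 4.73% (4.08% to 5.46%), an interval that includes the 4.48% of other bins.

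For PU.1 the difference was present at sites with and without the other macrophage factor, and for C/EBPβ the intervals overlapped in both classes. MAC PU.1 peaks that overlapped a MAC C/EBPβ peak lay on an HP PU.1 peak in 21.4% of cases in dense bins (19.5% to 23.3%) and in 16.1% elsewhere, and those without in 13.4% (12.2% to 14.7%) and 11.3%. For MAC C/EBPβ peaks on a PU.1 peak the HP C/EBPβ shares were 6.94% (5.82% to 8.21%) and 5.74% (5.43% to 6.06%), and without PU.1 they were 4.57% (3.45% to 5.92%) and 3.47% (3.26% to 3.68%). MAC C/EBPβ peaks in dense bins lay on an HP PU.1 peak in 13.4% of cases, against 6.80% elsewhere. Among those on a MAC PU.1 peak, a class that the choice of bins made more frequent, the shares were 21.5% (19.6% to 23.4%) and 16.1% (15.6% to 16.6%). Pooled macrophage C/EBPβ peaks in dense bins thus lay on a progenitor peak of PU.1 more often than on one of C/EBPβ (6.01%), and the HP PU.1 list is the longer of the 2. For those without a MAC PU.1 peak the order was reversed. In dense bins they lay on HP PU.1 in 0.761% of cases (0.349% to 1.44%), against 0.183% elsewhere, and on HP C/EBPβ in 4.57%.

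**Figure D3:**
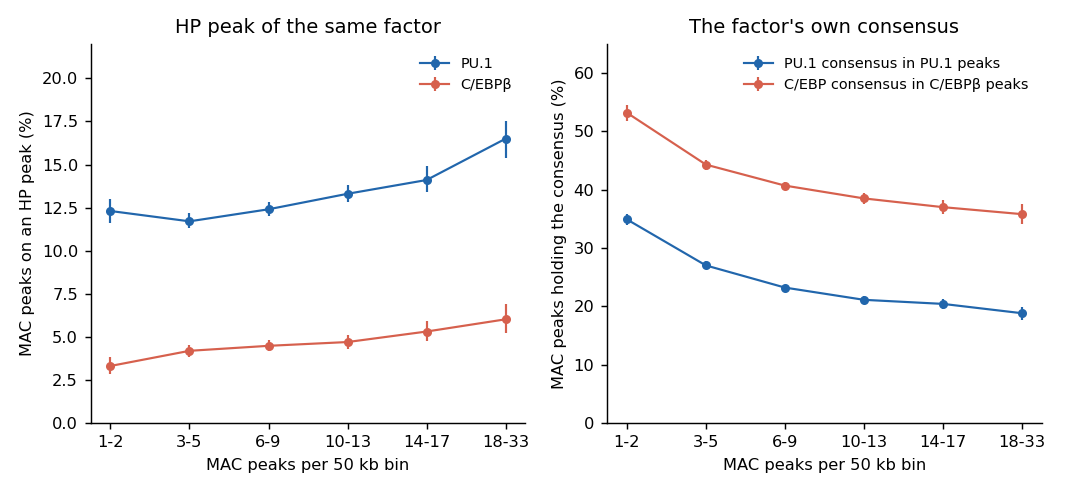
Left, share of MAC peaks that overlapped an HP peak of the same factor (%) by the number of MAC peaks in the bin. Right, share of MAC peaks that held the consensus of their own factor (%). Bars are exact 95% intervals, and the last class is that of the dense bins. HP overlap of PU.1 went from 12.3% in bins with 1 or 2 peaks to 16.5% in dense bins, whereas the share with a PU.1 consensus went from 34.9% to 18.8%.

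The consensus sequences of the factors, which the choice did not use either, were less frequent in dense bins. In dense bins 18.8% of MAC PU.1 peaks (17.7% to 19.9%) held GAGGAAGT within their 400 bp, against 24.8% (24.5% to 25.1%) in other bins and 2.43% of all 400 bp windows of the autosomes. For C/EBPβ peaks and TTGCNNAA the shares were 35.8% (34.1% to 37.5%) and 42.1% (41.6% to 42.5%), against 17.8% of windows. The share fell in each class of bins as peaks became more numerous. It was 34.9% for PU.1 and 53.2% for C/EBPβ in bins with 1 or 2 MAC peaks, 23.2% and 40.7% with 6 to 9, and 20.4% and 37.0% with 14 to 17.

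The pooled shares of the other consensus sequences differed less. The share of MAC PU.1 peaks with TTGCNNAA was 18.2% in dense bins and 17.7% elsewhere, with overlapping intervals and close to the 17.8% of windows. It was 27.9% (25.9% to 30.1%) and 29.6% (29.0% to 30.2%) among those on a C/EBPβ peak and 12.1% (10.9% to 13.3%) and 13% (12.7% to 13.3%) among the others. Both consensus sequences were in 2.90% of MAC PU.1 peaks in dense bins (2.44% to 3.42%) and in 3.90% elsewhere (3.76% to 4.04%). Among MAC C/EBPβ peaks both were in 2.89% (2.32% to 3.55%) and 2.57% (2.43% to 2.71%), with overlapping intervals. The RUNX consensus TGTGGTT was held by 10.3% of MAC PU.1 peaks in dense bins and by 10.3% elsewhere, and by 11.6% and 11.0% of C/EBPβ peaks, against 9.24% of windows. The AP-1 consensus TGANTCA was slightly more frequent in dense bins among PU.1 peaks (17.5%; 16.4% to 18.6%, against 15.7%) and occurred in 24.3% of C/EBPβ peaks, against 23.2% elsewhere, with overlapping intervals and with 11.7% of windows. MAC C/EBPβ peaks held the PU.1 consensus in 9.33% of cases in dense bins (8.32% to 10.4%) and in 7.92% elsewhere. Within classes this direction turned, with 14% (12.4% to 15.7%) and 15.3% (14.8% to 15.7%) of those on a PU.1 peak and 2.12% (1.37% to 3.11%) and 2.71% (2.53% to 2.90%) of the others, and the intervals overlapped in both. All sequences were searched on both strands, N stands for any base, and a match does not show that the sequence is bound.

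GC content moved with this result, since the median GC content was 50.8% in PU.1 peaks of dense bins and 48.2% in others, and 49.5% and 46.8% in C/EBPβ peaks. Among peaks with 45% to 55% GC, the PU.1 consensus was in 19.9% of PU.1 peaks in dense bins and 25.9% elsewhere, and the C/EBP consensus in 33.9% and 39.6% of C/EBPβ peaks. Among peaks over 2 kb from a coding TSS the shares were 20.0% and 27.3%, and 36.4% and 43.6%. The difference was about as large within these classes, which were chosen after the data were seen. The part of GC content and of distance to a TSS in the difference was not tested. A difference was also present at peaks of a single factor, with 20.5% and 27.5% for PU.1 and 40.9% and 47.6% for C/EBPβ. At peaks of both factors, which were more frequent in dense bins, the intervals overlapped, with the PU.1 consensus in 16% (14.4% to 17.8%) and 17.7% (17.2% to 18.3%) of PU.1 peaks and the C/EBP consensus in 32.5% (30.4% to 34.7%) and 34.2% (33.6% to 34.9%) of C/EBPβ peaks.

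Within dense bins, the peaks already present in progenitors held their consensus more often. MAC PU.1 peaks on an HP PU.1 peak held it in 36.5% of cases (33.1% to 40%), and the remaining MAC PU.1 peaks in 15.3% (14.1% to 16.4%). For C/EBPβ the shares were 65.2% (57.8% to 72.1%) and 33.9% (32.2% to 35.7%). Outside dense bins the same contrast was found, with 42.8% and 22.2% for PU.1 and 67.0% and 40.9% for C/EBPβ. Where a PU.1 peak held its consensus, the nearest copy was a median of 9 bp from the peak centre in dense bins and 10 bp elsewhere, and for C/EBPβ 20 bp and 22 bp, so that the position of the sequence differed little.

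The balance of the factors in each dense bin was then described, again without a test because both lists chose the bins. C/EBPβ made up a median of 38.9% of the MAC peaks of a bin (order-statistic 95% interval 37.9% to 39.1%), close to its 40.1% of both lists on the autosomes. The length of each list depends on its threshold, which the paper gives as looser for C/EBPβ than for PU.1 in MAC. These shares therefore describe listed peaks and not amounts of binding. PU.1 had more peaks in 337 bins (89.2%), C/EBPβ in 24 (6.35%), and 17 bins had equal numbers. The middle 90% of bins lay between 26.3% and 52.4%. The SD over bins was 8.18 percentage points, and it was 11.2 points in the 3380 bins with 10 to 17 peaks, which hold fewer peaks each. Binomial counting of independent peaks would give 10.8 and 14.1 points. The spread in balance was thus no larger than such counting can give, and contrasts between named bins are descriptions of their counts. A site of both factors adds 1 peak to each list and so brings the share of a bin closer to equal numbers.

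**Figure D4:**
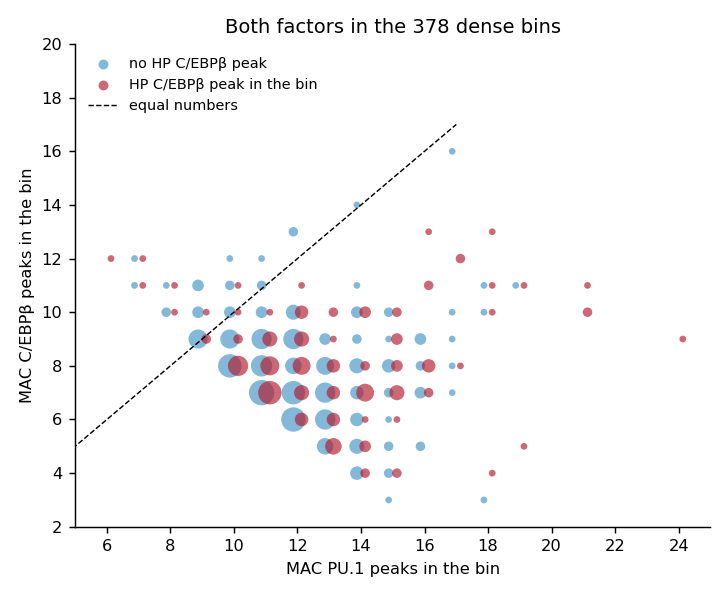
MAC PU.1 and C/EBPβ peaks in each of the 378 dense bins. The area of a point is proportional to the number of bins with those counts, and colour shows whether the bin held an HP C/EBPβ peak (points are shifted sideways by colour). The dashed line marks equal numbers. Most bins lie below it, with or without HP C/EBPβ.

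At the C/EBPβ end were a bin near Sp3 (chr2:73000001-73050000) with 6 PU.1 and 12 C/EBPβ peaks (66.7%), a bin within Rbms1 and the bin of Zfp704 with 7 and 12 (63.2%), and the bins of Spen, a transcriptional repressor, and Mitf with 7 and 11 (61.1%). The bin near Sp3 was also unusual in other lists, with 3 C/EBPβ and no PU.1 peak in HP and with C/EBPβ peaks in MES (2), HB (1) and HE (1). At the PU.1 end were the bins of Abtb1 (18 and 3, 14.3%), a bin near Cstad (15 and 3, 16.7%), Gse1 (18 and 4, 18.2%), Hmga1 with AI413582 (19 and 5, 20.8%), and, at 21.1% with 15 and 4 each, Inpp5d, Fnbp1, Dgkz and Sh2b3 with Pheta1. The Gse1 bin thus combined a low C/EBPβ share in MAC with 3 C/EBPβ peaks in HP. The median share was 38.9% in the 150 dense bins with an HP C/EBPβ peak and 38.9% in the 228 without.

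A minority of dense bins had no progenitor binding of either factor. There were 33 such bins, and 20 held no peak of any of the 6 HP lists. Those with the most MAC peaks each had 22. They were the bin of Fabp12 (12 PU.1 and 10 C/EBPβ peaks), a bin within Fndc3b (12 and 10), a bin within Capzb (15 and 7), the bin of Cd83, a marker of activated antigen-presenting cells (10 and 12), and that of Pacsin2 (14 and 8). Of these 5 bins, that within Fndc3b held an HP GFI1B peak. The bins of Il1rn, the lysosomal trafficking gene Lyst, Gpnmb, and Hcar2 with Hcar1 were among the 20 without any HP peak, named after their values were seen. Since the HP lists are short, an absent HP peak means that none passed the threshold of that list.

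Other factors of the progenitors were found in dense bins more often than in bins at large. GFI1B, a repressor, had an HP peak in 81 dense bins (21.4%; 17.4% to 25.9%), against 3.74% of all bins, and RUNX1 in 62 (16.4%; 12.8% to 20.5%), against 1.87%. GATA2 was found in 34 (8.99%; 6.31% to 12.3%), against 0.999%, and GATA1, the erythroid and megakaryocytic regulator, in 16 (4.23%; 2.44% to 6.78%), against 0.473%. In bins with 16 or 17 MAC peaks the shares were 19.0%, 9.64%, 7.44% and 3.58%, and only the interval of RUNX1 in dense bins excluded the value of these next bins. Of the bins with HP RUNX1, 56 of 62 also held HP PU.1, as did 73 of 81 with GFI1B, 29 of 34 with GATA2 and 16 of 16 with GATA1, compared with 88.4% of all dense bins.

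**Figure D5:**
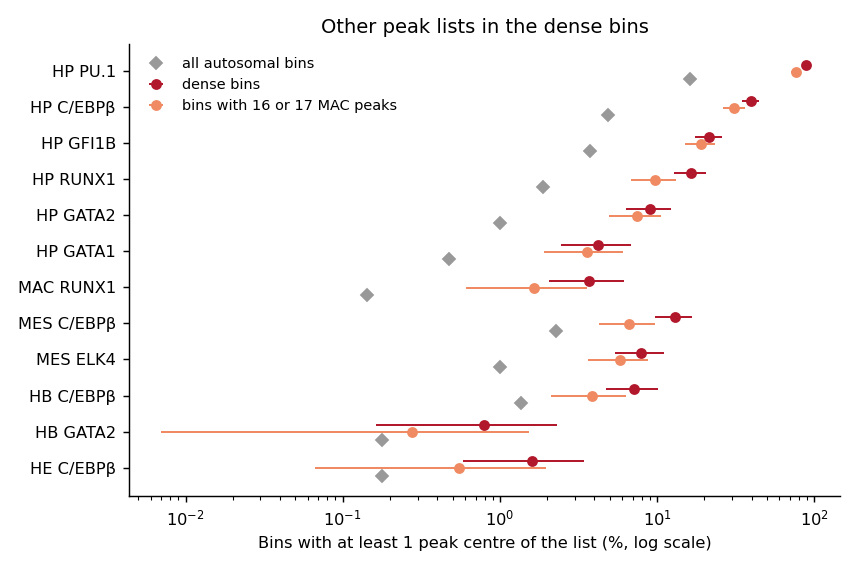
Share of bins with at least 1 peak centre of each list that was not used to choose the bins (%, log scale). Red, the 378 dense bins. Orange, the 363 bins with 16 or 17 MAC peaks. Grey, all 49264 autosomal bins. Bars are exact 95% intervals. HP PU.1, at 88.4%, was the list found in the most dense bins, and the grey points lie to the left of the red ones for each list.

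All 6 HP lists met in 3 dense bins, those of Runx1 (chr16:92800001-92850000), of Lyl1, a basic helix-loop-helix factor of blood stem cells (chr8:84700001-84750000), and of C5ar1 with Ccdc9 and Inafm1 (chr7:16250001-16300000). A further 7 bins held 5 HP lists, among them those of Tal1, the Lyl1 paralogue, with Pdzk1ip1 (chr4:115050001-115100000) and of Junb. How many of all autosomal bins held 5 or 6 HP lists was not counted, so these numbers have no background. The Lyl1 bin had 14 PU.1 and 5 C/EBPβ peaks in MAC and the Tal1 bin 14 and 7. The HB GATA2 list, whose background was 0.177% of bins, had peaks in only 3 dense bins (0.794%; 0.164% to 2.30%), those of Tal1, Lyl1 and Erg, and this interval includes the background. These bins were named after their values were seen.

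RUNX1 in macrophages had few peaks, but 14 of its 70 autosomal peaks (20.0%) lay in 14 dense bins (3.70%; 2.04% to 6.14%), against 0.142% of all bins. These included both Runx1 bins and the bins of Fos, Junb, Lyl1, Fcgr2b, Cd300a, Ifnar2, Rara, Lcp1, an actin bundling protein, and Zfp36, an mRNA decay factor of inflammatory transcripts. Apart from list members, these genes were named after their values were seen. Of the 14 bins, 13 held HP PU.1, as did 88.4% of all dense bins, and 8 held HP RUNX1, found in 16.4% of all dense bins. This value rests on 14 peaks.

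The C/EBPβ lists of earlier stages gave smaller numbers. MES C/EBPβ had peaks in 49 dense bins (13%; 9.75% to 16.8%), against 2.29% of all bins, HB C/EBPβ in 27 (7.14%; 4.76% to 10.2%), against 1.36%, and HE C/EBPβ in 6 (1.59%; 0.585% to 3.42%), against 0.179%. MES ELK4 was found in 30 (7.94%; 5.42% to 11.1%), against 1.00%. Of the bins with MES C/EBPβ 40 of 49 also held HP C/EBPβ, as did 25 of 27 with HB C/EBPβ and 39.7% of all dense bins, and all 22 bins with MES and HB C/EBPβ held it. List members in these 22 bins were Csf1, Cd68, Itgal, Abcg1, Lgmn, Psmb3 and 1 ribosomal protein gene, and further bins contained genes outside the lists, such as Smad3, Per1, Rock2, Mnt, Spata13 and Zc3h12a, named after their values were seen. Peaks within 500 bp of a tRNA gene made up 4 of the 7 HE peaks in dense bins, 4 of 28 in HB, 2 of 52 in MES and 4 of 184 in HP. Outside dense bins these numbers were 103 of 125 in HE, 65 of 679 in HB, 9 of 1110 in MES and 187 of 2499 in HP.

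Dense bins were unevenly distributed among chromosomes. Chromosome 8 held 43 of them, 1.66% of its bins against 0.718% of the bins of the other autosomes, and chromosome 11 held 37 (1.52%). Chromosome 11 has 13.1 coding genes per Mb and the highest density of MAC PU.1 peaks (49.8 per Mb), whereas chromosome 8 has 8.06 coding genes and 38.5 PU.1 peaks per Mb. On chromosome 8 most other lists were also denser than elsewhere, for example HP PU.1 with 6.08 peaks per Mb against 4.29 and MES C/EBPβ with 0.866 against 0.450, with HE C/EBPβ (0.0232 against 0.0553) as the exception. Its HP PU.1 density was not the highest, since chromosome 11 had 6.79 peaks per Mb, and chromosome 19 had 5.76. Whether chromosome 8 has an unusual copy number in these cells was not tested. Without chromosome 8, HP PU.1 was found in 87.2% and HP C/EBPβ in 38.5% of the dense bins.

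Most dense bins stood alone, and 48 of 378 formed 22 runs of adjacent bins. The longest runs had 3 bins. The run at chr8:126750001-126900000 contained no coding TSS and held 77 MAC peaks, 12 HP PU.1 peaks and 4 HP C/EBPβ peaks. The run at chr15:59700001-59850000, also without a coding TSS, held 65 MAC peaks and 3 HP PU.1 peaks, the run in Gse1 (chr8:120400001-120550000) 58 and 5, and that of Cerk and Tbc1d22a (chr15:86150001-86300000) 58 and 4. Runs of 2 bins covered, among others, Zmiz1, Cmip, Ptk2b, Rin3 with Lgmn, and Fcgr2b with Fcrla and Fcrlb. In the Iqsec1 run, with 41 MAC peaks, no HP PU.1 or C/EBPβ peak was found. The genes of the runs were likewise named after their values were seen.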

How the data were processed

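The 14 deposited lists of peak positions comprise 1 per antibody and population. Per the study's methods, the authors trimmed reads with CutAdapt, aligned them to mm10 with Bowtie (SHRiMP for SOLiD reads), kept unique and deduplicated reads, called peaks with MACS against the input of the same stage at a p-value threshold chosen by eye for each list, refined them with polyPeak and set them to a common width. Some libraries joined technical sequencing runs. Tool versions are not given in the sources used here, and the lists carry no depth. The deposited values are starts and ends in bp (400 bp per peak), with no score, so that peaks could not be ranked.

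Peak centres were counted in 50 kb bins from position 0, peaks overlapped when they shared at least 1 bp, and promoters reached 2 kb from a TSS. TSS are those of RefSeq coding transcripts of GRCm38 (53686 on autosomes). Shares have exact Clopper-Pearson 95% intervals. No test was possible because no list had a replicate. No paired analysis was possible because each group has 1 list. Of 518 gene list entries 516 matched a symbol. The bins, the gene lists, the consensus sequences and the alternatives were chosen with earlier results of these data known. Genes named are those with a TSS in the 10 bins with the most MAC peaks, list members in dense bins, and genes of the 5 bins at each end of the C/EBPβ share, with the most HP PU.1 or HP C/EBPβ peaks, or with the most MAC peaks but neither HP factor, with ties, unless stated otherwise. Calculations used Python 3.11.15, NumPy 2.4.6 and SciPy 1.17.1, and drawings Matplotlib 3.10.9. The counting steps were tested on simulated peaks. The members of the ribosomal protein list are not named here.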

Additional observations from a re-analysis of the deposited data

How the results depend on the processing

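The values were recomputed under 17 settings, giving 93 values, of which 57 stayed within the 95% interval of the reported value (for gene counts, within 1.5 times) and 36 moved. The 63 recomputed HP and overlap shares were all above the share in all bins, or in other bins, of the same setting. Among them, the shares of C/EBPβ peaks on PU.1 peaks come from the lists that chose the bins. Those shares describe the choice and are no independent check. There were no replicates, and intervals cover counting error only. List lengths were set by thresholds chosen by eye, so an absent peak is not absent binding. The settings without chromosome 8, with curated transcripts, with peaks of 45% to 55% GC and with distal peaks for the consensus were chosen after seeing the data.

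The HP PU.1 share of dense bins (88.4%) was 70.2% with 25 kb bins, 95.5% with 100 kb bins, 80.0% for the top 1000 bins, 84.5% with merged peaks, 83.4% with distal peaks and 76.7% with C/EBPβ ranking alone. The HP C/EBPβ share (39.7%) was 26.7%, 57.1%, 33.2%, 33.1% and 34.0% with 25 kb bins, 100 kb bins, the top 1000, distal peaks and C/EBPβ alone, and 45.6% for the top 100. Coding genes numbered 219 and 1402 for the top 100 and 1000, which take fewer and more bins, and 186 with distal peaks. MAC PU.1 peaks on HP PU.1 were 14.5% with 100 kb bins, 15.2% for the top 1000 and 14.8% with distal peaks. MAC C/EBPβ peaks on HP C/EBPβ were 5.09% with distal peaks and 4.73% (4.08% to 5.46%) with C/EBPβ alone, an interval that includes the 4.48% of other bins. The C/EBPβ share per bin was 40% with shifted bins and for the top 1000, 37.5% with merged peaks, 40.4% with scaled lists, 41.2% with distal peaks, 33.3% with PU.1 alone and 47.6% with C/EBPβ alone, the last 2 by construction. C/EBPβ peaks on PU.1 were 63.7% with 25 kb bins, 64.1% and 58.4% for the top 100 and 1000, 54.1% with merged peaks, 65.3% and 52.4% with PU.1 and C/EBPβ alone, and 49.9% at an overlap of 200 bp. The PU.1 consensus share was 20.0% in distal peaks, and the C/EBP share 33.9% at 45% to 55% GC. Where no construction is named, the cause was not tested.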
